A study of Saccharomyces cerevisiae with 12 samples.

Results

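The nuclear genes of the mitochondrial respiratory chain and ATP synthase were followed in 5PSeq libraries of budding yeast (*Saccharomyces cerevisiae*). Members were taken by name: nuclear genes whose symbol is COX, QCR, ATP or SDH followed by a number, together with *COR1*, *CYT1*, *RIP1*, *CYC1*, *NDI1*, *NDE1* and *NDE2*. The rule gave 60 of the 6302 genes listed, of which 40 encode structural subunits and 20 encode factors that assemble them or express their partners. It used no measured value. 5PSeq reads the ends of mRNA fragments that carry a 5′ phosphate, so a level here is the amount of a gene's degradation intermediates. More transcript and faster decay of the same transcript cannot be told apart in these counts.

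The 4 strains are derived from BY4741 (MATa his3∆1 leu2∆0 ura3∆0), were grown in YPD, a glucose-rich medium, at 30 °C and 200 rpm, and gave 3 libraries each. The *ncs2*∆*elp6*∆*hel2*∆ strain carries ncs2∆::HIS3MX, elp6∆::URA3 and hel2∆::LEU2. The *ncs2*∆*elp6*∆ strain carries the *NCS2* and *ELP6* deletions alone, and *hel2*∆ carries only hel2∆::LEU2. Wild type carries no deletion of these genes but is listed with met15∆0, which the other genotypes do not list, so that the effects of this allele and of the marker genes cannot be told apart from those of the deletions. Ncs2 and Elp6 act in the pathways that modify the wobble uridine of several tRNAs, and Hel2 is the ubiquitin ligase that marks collided ribosomes for ribosome-associated quality control (RQC). The labels give the replicates as separate samples without saying that they came from separate cultures, so p-values measure the spread between these samples.

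In yeast, electrons enter the chain through single-protein NADH dehydrogenases, since this organism lacks a proton-pumping complex I, and through succinate dehydrogenase (complex II). Ubiquinol passes them to the cytochrome bc1 complex (complex III), cytochrome c carries them to cytochrome c oxidase (complex IV), and the ATP synthase uses the resulting proton gradient. A few core subunits are encoded in mitochondria and the rest are nuclear, and on glucose many of the nuclear genes are repressed relative to growth on respiratory carbon sources.

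Library totals ran from 104202 to 415323 reads, and 3378 genes had enough reads to be tested. All *ncs2*∆*elp6*∆ libraries were larger than all wild-type libraries. *HEL2* had 0, 2 and 3 reads in *ncs2*∆*elp6*∆*hel2*∆, 25, 40 and 24 in *ncs2*∆*elp6*∆, 5, 1 and 2 in *hel2*∆, and 24, 14 and 10 in wild type. *NCS2* had 0 to 1 reads in libraries of strains that lack it and 1 to 8 in the others. *ELP6* had 1 to 5 reads where it is deleted and 3 to 11 where it is present, so that its counts overlapped.

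The members together took 0.153 to 0.263% of the reads of a library, 5551 reads in all. Their median was 3.83 reads per library, and 7 of them averaged under 1 read. Only 21 members (35%) passed the low-count filter, against 53.6% of all listed genes. The median gene length was 801 bp for the tested members and 462 bp for the 39 that were not tested, with ranges that overlap (183 to 1923 bp and 180 to 2055 bp). The ATP synthase genes held 35.1% of the members' reads, complex IV 18.9%, the NADH dehydrogenases 17.8%, complex II 14.2%, complex III 13.8% and *CYC1*, the gene of the main cytochrome c, 0.144%. None of the 60 was without reads altogether, 28 had reads in all 12 libraries, and 31 of the 39 untested members were at 0 in at least 1 library. Floors below cover the counting error of a count of 0 only, and the reads set against them are taken as exact. The 95% intervals come from the fit and include the spread between libraries. A floor of 3 reads, the limit that a count of 0 allows, corresponds to 6.55 to 34.1 CPM in a library (CPM being reads scaled to library size, here with TMM factors).

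**Figure D1:**
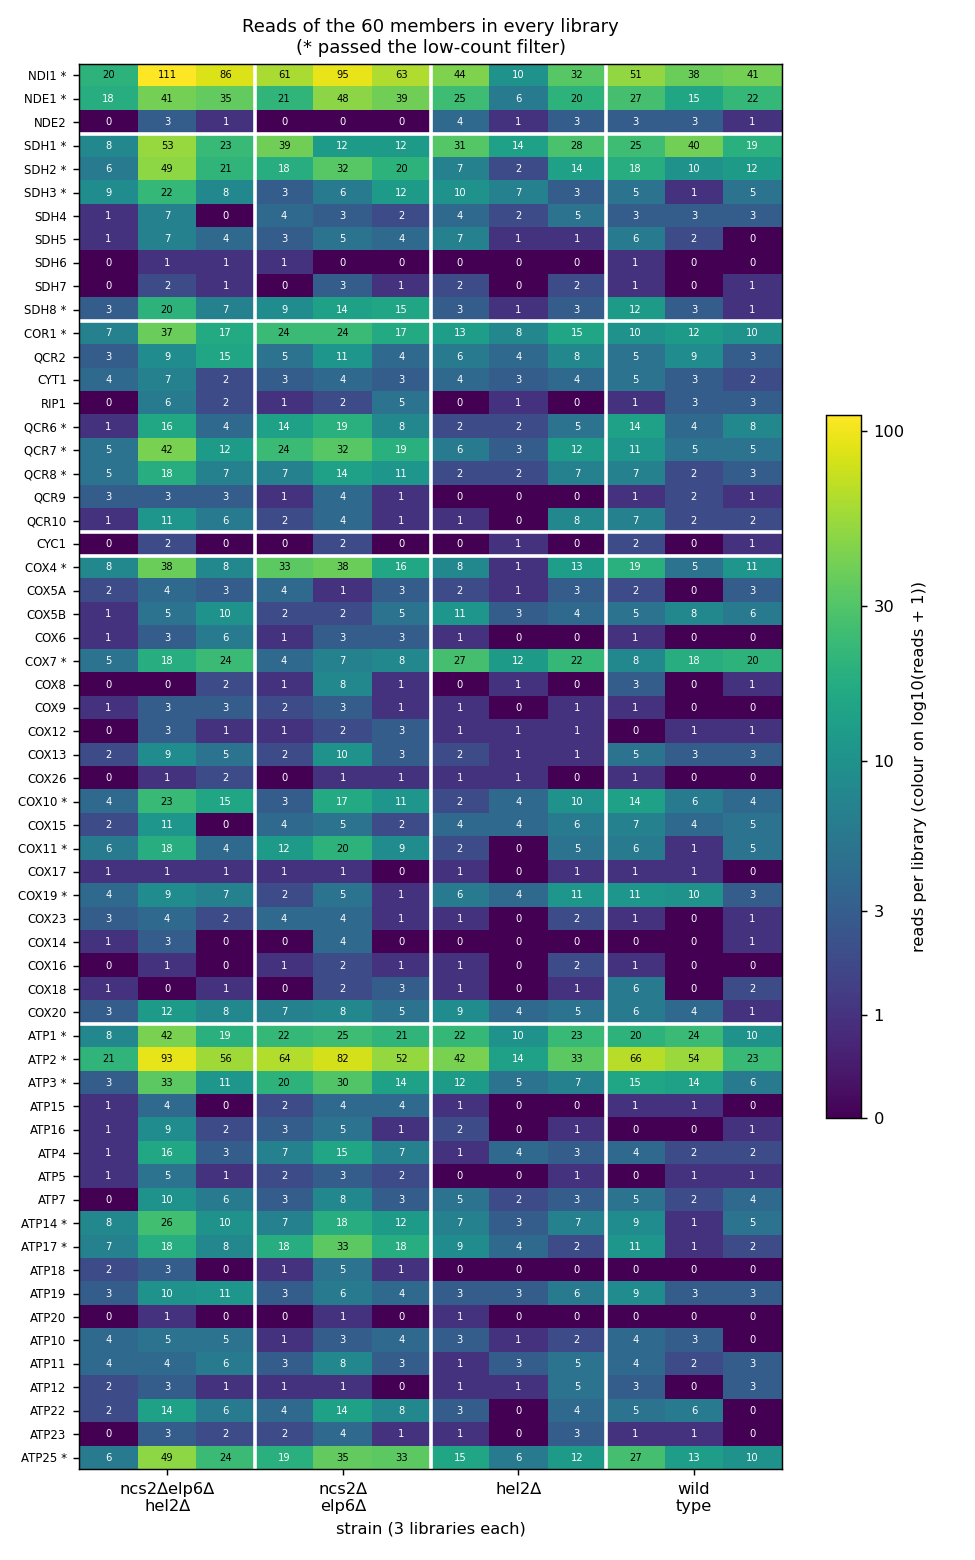
Reads of each of the 60 members (rows, grouped by complex from the NADH dehydrogenases at the top to the ATP synthase at the bottom) in the 12 libraries (columns, 3 per strain). Each cell prints the reads, with colour on a log10(reads + 1) scale, and asterisks mark the 21 members that passed the low-count filter; most other rows hold single-digit counts, and the highest count of an untested member was 16.

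Per length, *COX7* was the member with the most reads, 945 per kb over all libraries. *QCR7* followed with 458, *ATP17* with 428, *COX4* with 423, *NDI1* with 423 and *ATP2* with 391 reads per kb. The order differed between strains. *COX7* had the highest per-kb level in *ncs2*∆*elp6*∆*hel2*∆, *hel2*∆ and wild type, but in *ncs2*∆*elp6*∆ it averaged 126 ± 45.4 CPM per kb, below *ATP17*, *QCR7*, *COX4*, *NDI1*, *ATP2* and *QCR8*. Per-kb levels of *ATP17* averaged 265 ± 51.5 CPM per kb in *ncs2*∆*elp6*∆ and 77.7 ± 75.04 in wild type, while those of *ATP2* averaged 154 ± 15.8 in *ncs2*∆*elp6*∆ and 182 ± 66.8 in wild type (SD, n = 3).

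Summed over the 40 structural subunits, levels overlapped between the strains. The sums were 1684, 1726 and 1916 CPM in *ncs2*∆*elp6*∆*hel2*∆, 1708, 1872 and 1610 CPM in *ncs2*∆*elp6*∆, 1736, 1500 and 1535 CPM in *hel2*∆, and 1724, 1984 and 1769 CPM in wild type. These ranges overlap for every pair of strains. By complex, the structural genes of the ATP synthase (13 genes) summed to 572 ± 15.0 CPM in *ncs2*∆*elp6*∆*hel2*∆, 624 ± 75.7 CPM in *ncs2*∆*elp6*∆, 511 ± 62.8 CPM in *hel2*∆ and 585 ± 151 CPM in wild type (SD, n = 3). Complex III (9 genes) summed to 306 ± 17.0, 315 ± 33.4, 251 ± 61.3 and 278 ± 9.04 CPM in the same strains. Complex II (4 genes) was at 253 ± 29.4, 200 ± 49.3, 276 ± 13.7 and 295 ± 69.7 CPM, and complex IV (10 genes) at 223 ± 53.1, 201 ± 24.4, 256 ± 33.8 and 257 ± 63.6 CPM. The sums of each complex overlapped between *ncs2*∆*elp6*∆ and wild type.

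**Figure D2:**
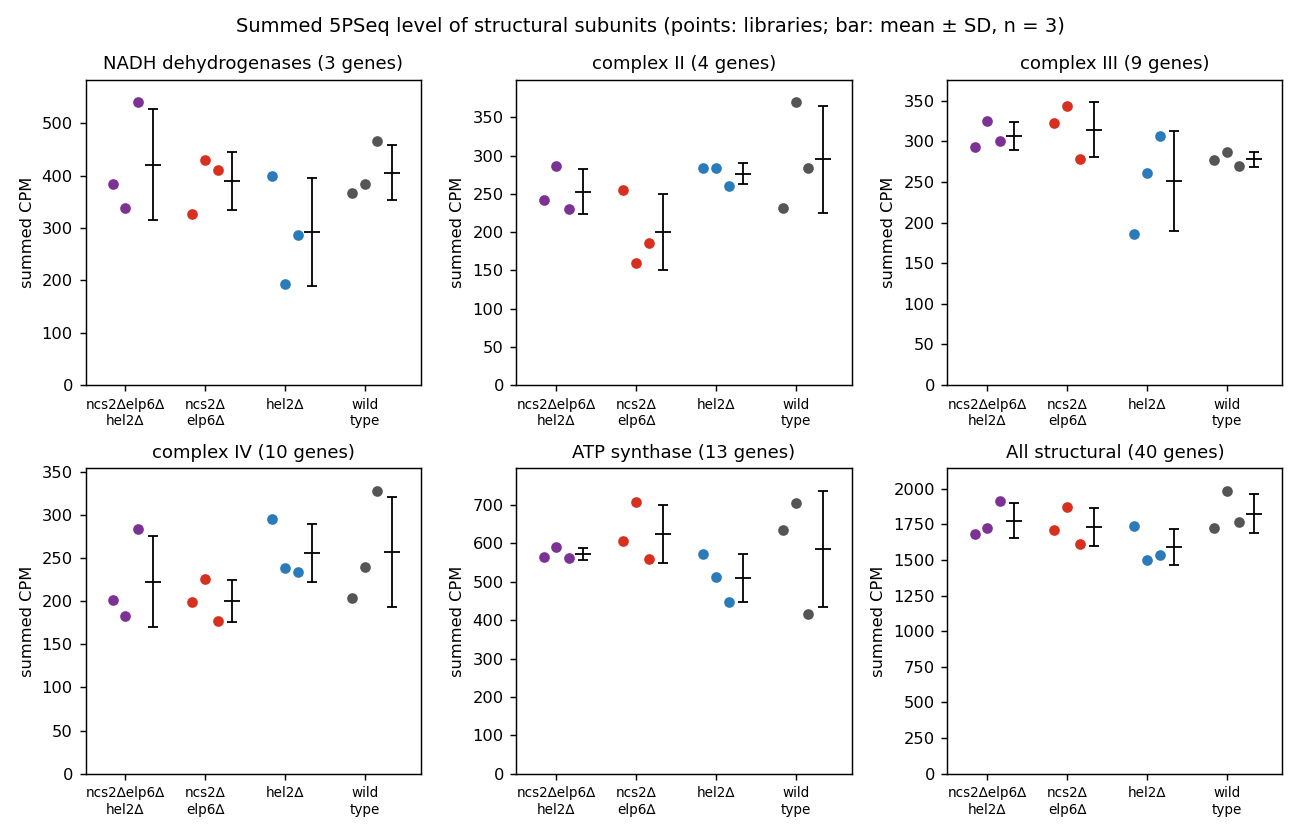
Summed TMM-scaled CPM of the structural genes of each complex and of all 40 (y axes from 0) in *ncs2*∆*elp6*∆*hel2*∆, *ncs2*∆*elp6*∆, *hel2*∆ and wild type. Points are libraries and bars are the mean ± SD of 3; the sum over all 40 stays between 1500 and 1984 CPM in all 12 libraries.

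Single members changed in the strain without the wobble uridine modifications, although these sums overlapped. In *ncs2*∆*elp6*∆ against wild type, 5 of the 21 tested members passed an adjusted p of 0.05 in edgeR's quasi-likelihood test, 3 lower (*COX19*, *COX7*, *SDH1*) and 2 higher (*ATP17*, *QCR7*). Over all genes tested, 30.1% passed in this comparison, 16.7% lower and 13.4% higher, so the members' share of 23.8% lay near the background. Their median log2 fold change was 0.10, beside 0.04 for all genes, with 14 positive and 7 negative values. In no complex were all tested genes called. The called members were 1 of 3 tested structural genes of complex II, 1 of 4 of complex III, 1 of 2 of complex IV, 1 of 5 of the ATP synthase, and 1 of the 5 tested assembly factors. The number of calls was 2 without wild type replicate 2 (beside 775 of 3591 genes) and 3 without wild type replicate 3 (beside 834 of 3589). It was 3 without *ncs2*∆*elp6*∆ replicate 2 (beside 856 of 3399). Only the *COX7* and *COX19* calls were kept whichever of the 6 libraries was left out. The *ncs2*∆*elp6*∆ libraries were also the larger ones (227838 to 295085 reads, against 155659 to 225293 in wild type). With all libraries thinned to the smallest total, 12 members could be tested, and *COX7* and *QCR7* were called, beside 515 of 2443 genes.

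**Figure D3:**
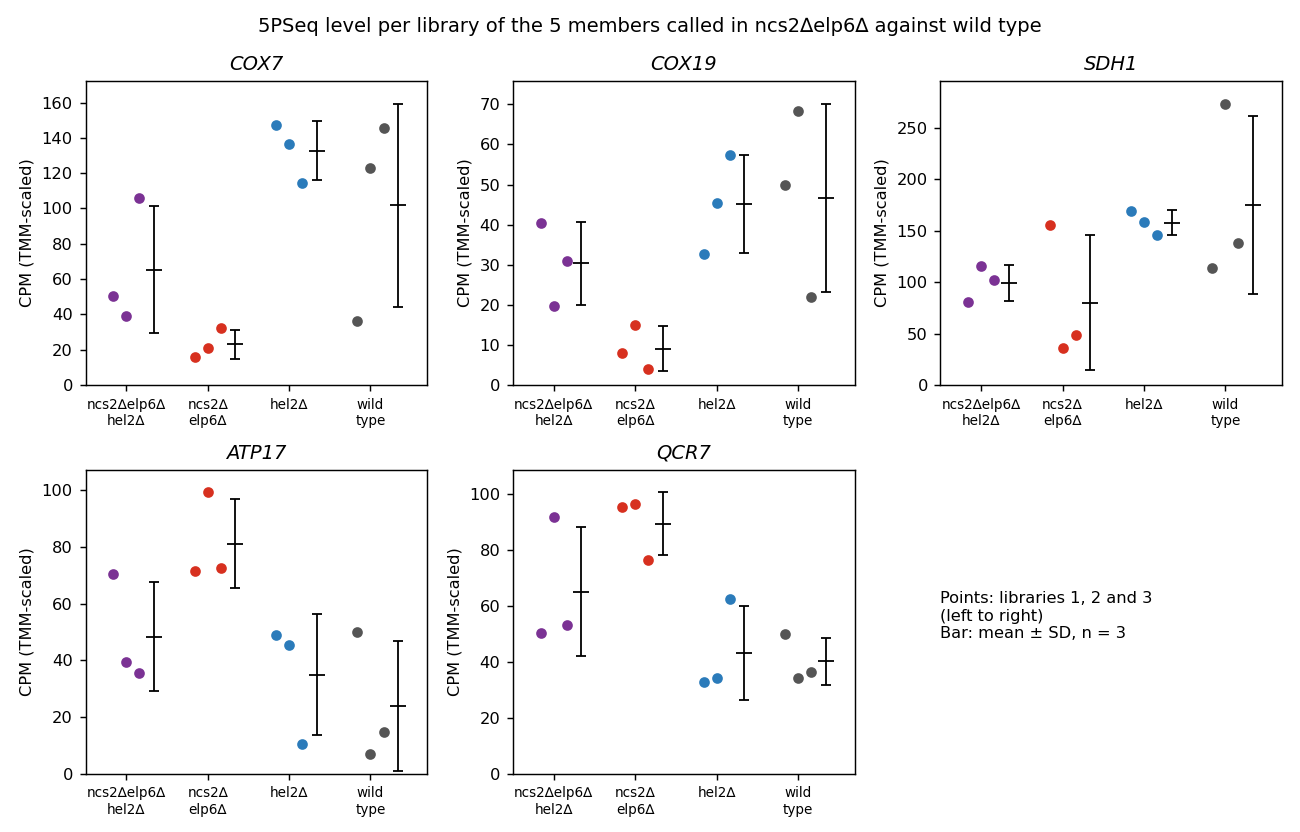
TMM-scaled CPM (y axes from 0) of the 5 members called in *ncs2*∆*elp6*∆ against wild type, in *ncs2*∆*elp6*∆*hel2*∆, *ncs2*∆*elp6*∆, *hel2*∆ and wild type, with points for libraries and bars for the mean ± SD of 3. The *ncs2*∆*elp6*∆ points lie below all wild-type points for *COX7* and *COX19*, above all of them for *ATP17* and *QCR7*, and overlap them for *SDH1*.

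No NADH dehydrogenase gene was called. *NDI1* encodes the enzyme on the matrix side of the inner membrane, and *NDE1* and *NDE2* encode the pair that face outwards and oxidise cytosolic NADH. *NDI1*, the member with the most reads (652), was at 243, 286 and 254 CPM in *ncs2*∆*elp6*∆ and 231, 260 and 299 CPM in wild type. Its log2 fold change was 0.00 (95% interval −0.50 to 0.51). *NDE1* was at 83.6, 145 and 157 CPM in *ncs2*∆*elp6*∆ and 123, 103 and 160 CPM in wild type, a log2 fold change of 0.02 (interval −0.63 to 0.66). The libraries of both strains overlapped for both genes. *NDE2* was rare and was not tested. It had 0, 3 and 1 reads in *ncs2*∆*elp6*∆*hel2*∆, 0 in every *ncs2*∆*elp6*∆ library, 4, 1 and 3 in *hel2*∆ and 3, 3 and 1 in wild type. With 3 reads over the group as the floor, the 7 wild-type reads, taken as exact, correspond to a level at least 3.86-fold lower in *ncs2*∆*elp6*∆. In a fit without the low-count filter, *NDE2* had an adjusted p of 0.0116.

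In complex II the flavoprotein gene fell in *ncs2*∆*elp6*∆ and no other tested gene was called. *SDH1* (chromosome XI, 169207 to 171129, R64 assembly), which encodes the flavoprotein subunit that oxidises succinate, was at 155, 36.1 and 48.3 CPM in *ncs2*∆*elp6*∆ and 113, 274 and 138 CPM in wild type. *ncs2*∆*elp6*∆ replicate 1 lay among the wild-type values and the other 2 replicates below them. The log2 fold change was −1.14 ± 0.40 (SE, adjusted p = 0.0316), and the call was lost without wild type replicate 2 (−0.68, adjusted p = 0.276), without *ncs2*∆*elp6*∆ replicate 2 (−0.68, 0.216) or replicate 3 (−0.90, 0.12), and became −2.03 (adjusted p = 0.000336) without replicate 1. In the strains that lack *HEL2*, *SDH1* was at 80.7, 116 and 102 CPM in *ncs2*∆*elp6*∆*hel2*∆ and 169, 159 and 146 CPM in *hel2*∆. These libraries did not overlap, with a log2 fold change of −0.60 ± 0.40 that did not pass (adjusted p = 0.327). *SDH2*, the iron-sulfur subunit, was at 71.7, 96.3 and 80.5 CPM in *ncs2*∆*elp6*∆ and 81.7, 68.4 and 87.4 CPM in wild type, a log2 fold change of 0.08 (interval −0.59 to 0.74). The difference between the changes of *SDH1* and *SDH2* was not tested. *SDH3*, a membrane anchor subunit, had the widest spread of the tested members in this comparison (SE 0.67), and *SDH4*, the other anchor, had 0 to 7 reads per library. Of the assembly factors only *SDH8*, which protects free Sdh1, was tested, with 35.8, 42.1 and 60.4 CPM in *ncs2*∆*elp6*∆ and 54.4, 20.5 and 7.28 CPM in wild type (log2 fold change 0.56 ± 0.48, adjusted p = 0.411). *SDH5*, *SDH6* and *SDH7* had at most 7 reads in any library.

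In complex III the gene of a small subunit rose in *ncs2*∆*elp6*∆ and no other tested gene was called. *QCR7* (chromosome IV, 1496165 to 1496548) encodes a matrix-side subunit that contacts cytochrome b. It was at 95.6, 96.3 and 76.5 CPM in *ncs2*∆*elp6*∆ and 49.9, 34.2 and 36.4 CPM in wild type, without overlap. It rose 2.15-fold, a log2 fold change of 1.11 ± 0.36 (adjusted p = 0.0226). The call was lost without wild type replicate 2 or 3 (adjusted p = 0.0808 and 0.0704) or *ncs2*∆*elp6*∆ replicate 1 (0.0511), with the log2 fold change between 1.00 and 1.06. With *HEL2* deleted in both strains, *QCR7* was at 50.4, 91.7 and 53.1 CPM in *ncs2*∆*elp6*∆*hel2*∆ and 32.8, 34.1 and 62.5 CPM in *hel2*∆, which overlap (0.66 ± 0.38, adjusted p = 0.251). *COR1*, which like the untested *QCR2* encodes a core protein, was at 95.6, 72.2 and 68.4 CPM in *ncs2*∆*elp6*∆ and 45.4, 82.1 and 72.8 CPM in wild type (0.28, interval −0.37 to 0.93). *QCR8* and *QCR6*, both small subunits, had log2 fold changes of 0.69 ± 0.49 and −0.06 ± 0.42, neither of which passed. The other 5 structural genes, *QCR2*, *CYT1*, *RIP1*, *QCR9* and *QCR10*, were not tested. *QCR9* was at 3, 3 and 3 reads in *ncs2*∆*elp6*∆*hel2*∆, 1, 4 and 1 in *ncs2*∆*elp6*∆, 0 in every *hel2*∆ library and 1, 2 and 1 in wild type. Its 9 reads in *ncs2*∆*elp6*∆*hel2*∆, taken as exact, put it at least 1.77-fold higher there than in *hel2*∆. In the fit without the low-count filter *QCR9* did not pass in this comparison (adjusted p = 0.0978).

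Cytochrome c was barely seen. *CYC1* had 0, 2 and 0 reads in *ncs2*∆*elp6*∆*hel2*∆, 0, 2 and 0 in *ncs2*∆*elp6*∆, 0, 1 and 0 in *hel2*∆, and 2, 0 and 1 in wild type. *CYC7*, the gene of the isoform known from hypoxic growth, had 0, 4 and 0, then 2, 3 and 0, then 0, 1 and 0 reads in those strains and 0 in all wild-type libraries. Neither gene passed the low-count filter, and counts this low cannot show whether either differed between the strains.

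Among the 21 tested members, those with the lowest log2 fold changes were in complex IV. *COX7* (chromosome XIII, 778945 to 779127) encodes a small membrane subunit. It was at 15.9, 21.1 and 32.2 CPM in *ncs2*∆*elp6*∆ and 36.3, 123 and 146 CPM in wild type. All *ncs2*∆*elp6*∆ libraries lay below all wild-type libraries, though wild type replicate 1 came within a few CPM of the highest of them. *COX7* fell to 0.245 of its wild-type level (log2 fold change −2.03 ± 0.49, adjusted p = 0.0027), and the call held without any 1 of the 6 libraries (adjusted p 0.000144 to 0.0302). In *ncs2*∆*elp6*∆*hel2*∆ it was at 50.4, 39.3 and 106 CPM, against 147, 136 and 115 CPM in *hel2*∆. These libraries did not overlap either, but the log2 fold change of −1.06 ± 0.41 did not pass (adjusted p = 0.0863). It passed without *ncs2*∆*elp6*∆*hel2*∆ replicate 3 (−1.64, adjusted p = 0.00977).

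*COX19* (chromosome XII, 108676 to 108972), which encodes an assembly protein with cysteine motifs involved in copper delivery to the enzyme, was at 7.96, 15.1 and 4.03 CPM in *ncs2*∆*elp6*∆ and 49.9, 68.4 and 21.8 CPM in wild type. It fell to 0.211 of its wild-type level (log2 fold change −2.24 ± 0.57, adjusted p = 0.0039), without overlap, and the call held without any 1 of the 6 libraries (adjusted p 0.00310 to 0.0392). These values rest on 2, 5 and 1 reads in *ncs2*∆*elp6*∆ and 11, 10 and 3 reads in wild type. *COX19* reached 10 reads only in wild type replicates 1 and 2 and in *hel2*∆ replicate 3 (11 reads). The gene thus passed the low-count filter only through strains with *NCS2* and *ELP6* intact, where its level was high. In *ncs2*∆*elp6*∆*hel2*∆ *COX19* was at 40.3, 19.6 and 31.0 CPM, overlapping *hel2*∆ at 32.8, 45.4 and 57.3 CPM (−0.76 ± 0.50, adjusted p = 0.32).

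The other genes of complex IV were not called. *COX4*, a zinc-binding subunit, was at 131, 114 and 64.4 CPM in *ncs2*∆*elp6*∆ and 86.2, 34.2 and 80.1 CPM in wild type (log2 fold change 0.59 ± 0.39, adjusted p = 0.264). *COX11*, which serves copper insertion, had a log2 fold change of 1.02 ± 0.54 (adjusted p = 0.156), and *COX10*, which makes heme O on the way to heme A, one of −0.34 ± 0.49 (adjusted p = 0.645). Subunit V has isoforms encoded by *COX5A*, used in air, and *COX5B*, known from hypoxic growth. *COX5A* had 2, 4 and 3 reads in *ncs2*∆*elp6*∆*hel2*∆, 4, 1 and 3 in *ncs2*∆*elp6*∆, 2, 1 and 3 in *hel2*∆ and 2, 0 and 3 in wild type. *COX5B* had 1, 5 and 10, then 2, 2 and 5, then 11, 3 and 4 reads in those strains and 5, 8 and 6 in wild type. In CPM, *COX5B* averaged 11.4 ± 7.6 in *ncs2*∆*elp6*∆ and 40.4 ± 16.3 in wild type (SD, n = 3), and it had an adjusted p of 0.0314 in the fit without the low-count filter. Of the 13 further untested members of complex IV, *COX20*, needed for maturation of Cox2, had the highest count in a library, 12 reads.

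In the ATP synthase the 5 genes of the catalytic head summed to more CPM than the 4 nuclear genes of the membrane part. These sums are not scaled to gene length. Per kb, *ATP17* of the membrane part had 428 reads and *ATP2* of the head 391. *ATP17* (chromosome IV, 1228611 to 1228916), which encodes subunit f of the membrane-embedded Fo part, was at 71.7, 99.3 and 72.5 CPM in *ncs2*∆*elp6*∆ and 49.9, 6.84 and 14.6 CPM in wild type. It rose 2.98-fold, a log2 fold change of 1.58 ± 0.49 (adjusted p = 0.0162), without overlap. Wild type replicate 1, with 11 reads, stood above replicates 2 and 3, with 1 and 2 reads. *ATP17* passed the low-count filter mainly through the *ncs2*∆*elp6*∆ libraries (18, 33 and 18 reads), the strain where it was high. The log2 fold change was 2.94 without wild type replicate 1 (adjusted p = 0.00184), 1.19 without replicate 2 (0.0914) and 1.34 without replicate 3 (0.0724), and the call was also lost without *ncs2*∆*elp6*∆ replicate 2 (1.45, 0.0549). In *ncs2*∆*elp6*∆*hel2*∆ the gene was at 70.6, 39.3 and 35.4 CPM, against 49.1, 45.4 and 10.4 CPM in *hel2*∆ (0.40 ± 0.55, adjusted p = 0.673), and there the sign turned without *hel2*∆ replicate 3 (−0.15).

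Of the catalytic F1 head, *ATP1*, *ATP2* and *ATP3* were tested and none was called, while *ATP15* and *ATP16* were not tested. *ATP15*, the epsilon subunit, had 1, 4 and 0 reads in *ncs2*∆*elp6*∆*hel2*∆ and 2, 4 and 4 in *ncs2*∆*elp6*∆. It had 1, 0 and 0 reads in *hel2*∆ and 1, 1 and 0 in wild type. Its CPM did not overlap between *ncs2*∆*elp6*∆ and wild type. *ATP2*, the beta subunit and the second member by reads (600), was at 255, 247 and 209 CPM in *ncs2*∆*elp6*∆ and 299, 370 and 168 CPM in wild type (log2 fold change −0.24, interval −0.74 to 0.25). *ATP1*, the alpha subunit, was at 87.6, 75.3 and 84.5 CPM in *ncs2*∆*elp6*∆ and 90.7, 164 and 72.8 CPM in wild type (−0.39, interval −1.001 to 0.21). *ATP3*, the gamma subunit of the central stalk, had a log2 fold change of 0.14 (interval −0.59 to 0.86). Summed over the 5 F1 genes, levels were 376 ± 28.6 CPM in *ncs2*∆*elp6*∆*hel2*∆, 417 ± 40.7 CPM in *ncs2*∆*elp6*∆, 365 ± 57.8 CPM in *hel2*∆ and 464 ± 173 CPM in wild type. The 4 stator genes summed to 104.6 ± 18.3, 102 ± 28.7, 82.0 ± 17.5 and 70.0 ± 25.3 CPM in the same strains, and the 4 Fo and dimer genes to 91.6 ± 26.4, 105.2 ± 26.3, 64.0 ± 19.9 and 51.5 ± 34.3 CPM (SD, n = 3). *ATP14*, a stator subunit, was at 27.9, 54.2 and 48.3 CPM in *ncs2*∆*elp6*∆ and 40.8, 6.84 and 36.4 CPM in wild type (0.57 ± 0.47, adjusted p = 0.388). *ATP18*, a small subunit of Fo, had 2, 3 and 0 reads in *ncs2*∆*elp6*∆*hel2*∆ and 1, 5 and 1 in *ncs2*∆*elp6*∆, and none in any *hel2*∆ or wild-type library. With 7 reads in *ncs2*∆*elp6*∆, taken as exact, its level there was at least 1.41-fold that of wild type. In the fit without the low-count filter *ATP18* did not pass in that comparison (adjusted p = 0.114). Its level in *ncs2*∆*elp6*∆*hel2*∆ could not be told from the floor in *hel2*∆. *ATP25*, the tested assembly gene, whose product stabilises the mitochondrial mRNA of the Fo ring subunit, was at 75.6, 105.4 and 133 CPM in *ncs2*∆*elp6*∆ and 123, 89.0 and 72.8 CPM in wild type (0.10, interval −0.52 to 0.72).

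**Figure D4:**
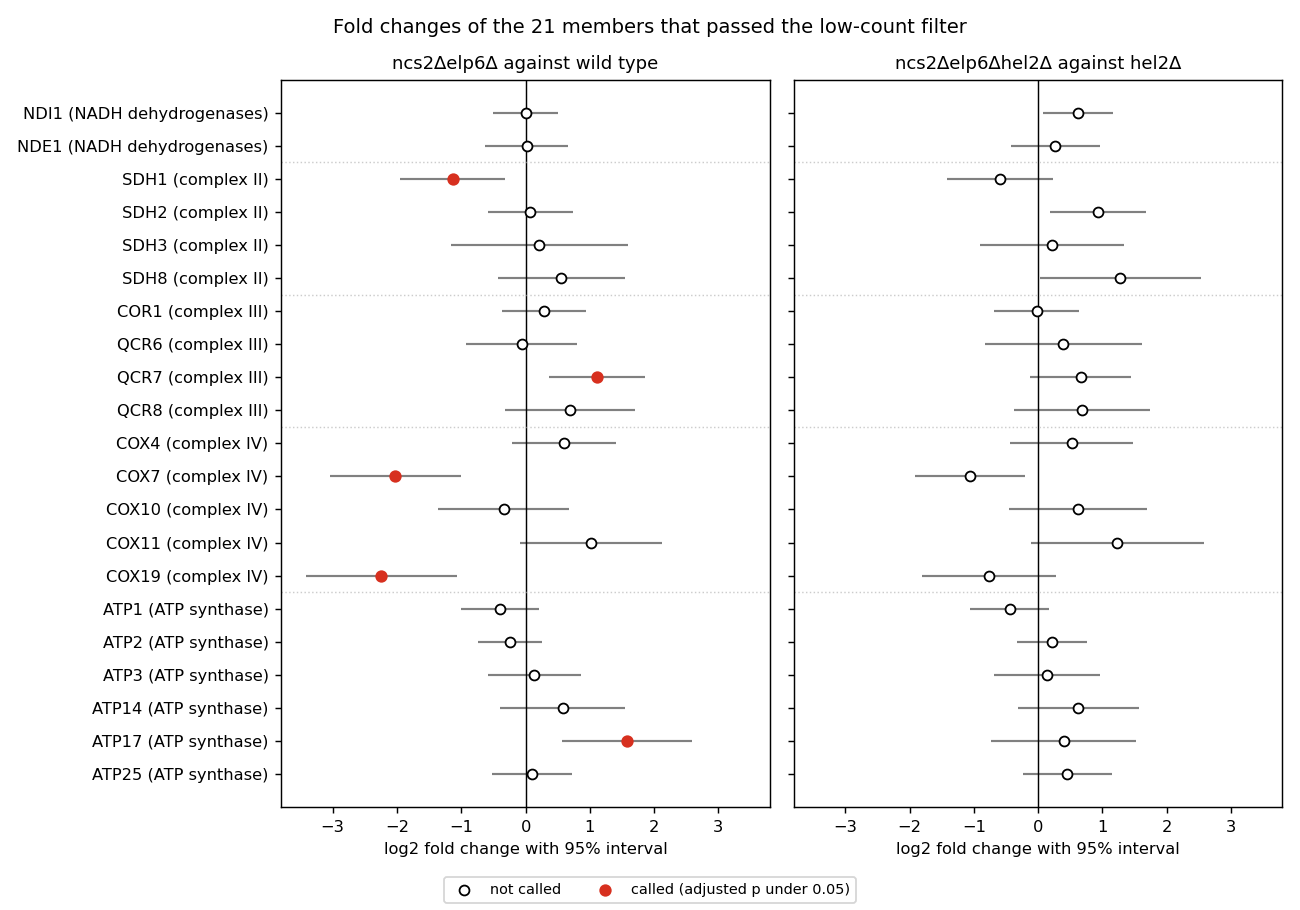
Log2 fold changes (x axis) with 95% intervals of the 21 tested members, grouped by complex, in *ncs2*∆*elp6*∆ against wild type (left) and *ncs2*∆*elp6*∆*hel2*∆ against *hel2*∆ (right). Filled points passed an adjusted p of 0.05: 5 on the left and 0 on the right, where *COX7* has the lowest value (−1.06).

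Loss of the same tRNA modifications in the absence of *HEL2* gave no called member. In *ncs2*∆*elp6*∆*hel2*∆ against *hel2*∆, 0 of 21 passed, where 14.6% of all tested genes did, and DESeq2 also called 0. The all-gene count of 492 ran from 129 (without *ncs2*∆*elp6*∆*hel2*∆ replicate 2) to 650 when 1 library was left out, and was 170 without *hel2*∆ replicate 1, 311 without *hel2*∆ replicate 2 and 323 without *ncs2*∆*elp6*∆*hel2*∆ replicate 1. At an unadjusted p under 0.05 there were 4: *SDH2* (log2 fold change 0.93 ± 0.36), *COX7* (−1.06 ± 0.41), *NDI1* (0.63 ± 0.26) and *SDH8* (1.28 ± 0.60). The members leaned upwards, with 16 positive and 5 negative values and a median of 0.40, beside 0.05 for all genes and an SD of 0.16 between libraries of a strain. Before TMM scaling, *hel2*∆ libraries gave 0.153 to 0.187% of their reads to members, against 0.205 to 0.236% in *ncs2*∆*elp6*∆*hel2*∆. Wild-type libraries gave 0.182 to 0.221%, which overlaps *hel2*∆. Why the members leaned upwards was not tested. The 27 tested genes of mitochondrial ribosomal proteins leaned the same way, with 22 positive and 5 negative values and a median of 0.49. The members' median was 0.40 with all libraries thinned to the smallest total and 0.45 without *hel2*∆ replicate 2, a small library of 105563 reads. *SDH2* was at 60.5, 107 and 92.9 CPM in *ncs2*∆*elp6*∆*hel2*∆ and 38.2, 22.7 and 72.9 CPM in *hel2*∆, and passed (1.48, adjusted p = 0.0365) only when *hel2*∆ replicate 3 was left out. *NDI1* was at 202, 242 and 381 CPM in *ncs2*∆*elp6*∆*hel2*∆ and 240, 114 and 167 CPM in *hel2*∆, which overlap (adjusted p = 0.114). *SDH8* was at 30.3, 43.7 and 31.0 CPM in *ncs2*∆*elp6*∆*hel2*∆ and 16.4, 11.4 and 15.6 CPM in *hel2*∆, without overlap (adjusted p = 0.16).

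This comparison and that of *ncs2*∆*elp6*∆ with wild type share no library, so their signs can be set side by side. All 5 called members had the same sign in both, as did 96.3% of the 1016 genes called in *ncs2*∆*elp6*∆ against wild type. Over all 21 tested members the signs matched for 17 (81%), beside 78.5% of all tested genes.

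Removing *HEL2* changed no member past the threshold. In *hel2*∆ against wild type, 0 of 21 members and 0.0888% of all genes passed, with 2 members at an unadjusted p under 0.05 and 0 called by DESeq2. *QCR6*, the acidic hinge subunit of complex III, was at 10.9, 22.7 and 26.0 CPM in *hel2*∆ and 63.5, 27.4 and 58.3 CPM in wild type, without overlap (log2 fold change −1.37 ± 0.56, adjusted p = 0.98). *ATP2* was at 229, 159 and 172 CPM in *hel2*∆ and 299, 370 and 168 CPM in wild type (−0.56 ± 0.26, adjusted p = 0.98). The members' median was −0.24, beside −0.01 for all genes and −0.215 for the tested genes of mitochondrial ribosomal proteins. In *ncs2*∆*elp6*∆*hel2*∆ against *ncs2*∆*elp6*∆, 0 of 21 members and 5.68% of all genes passed, again with 0 by DESeq2, and 4 members had an unadjusted p under 0.05. The all-gene count of 192 was 38 without *ncs2*∆*elp6*∆*hel2*∆ replicate 3, 399 without *ncs2*∆*elp6*∆*hel2*∆ replicate 2, 75 without *ncs2*∆*elp6*∆ replicate 2 and 109 without *ncs2*∆*elp6*∆ replicate 1. *COX7* was at 50.4, 39.3 and 106 CPM in *ncs2*∆*elp6*∆*hel2*∆ and 15.9, 21.1 and 32.2 CPM in *ncs2*∆*elp6*∆, without overlap (1.44 ± 0.50, adjusted p = 0.091), and it passed without *ncs2*∆*elp6*∆*hel2*∆ replicate 2 (1.84, adjusted p = 0.0147). *COX19* was at 40.3, 19.6 and 31.0 CPM in *ncs2*∆*elp6*∆*hel2*∆ and 7.96, 15.1 and 4.03 CPM in *ncs2*∆*elp6*∆, without overlap (1.41 ± 0.60, adjusted p = 0.18). *ATP17* (−0.92 ± 0.42) and *QCR6* (−0.91 ± 0.44) were lower in *ncs2*∆*elp6*∆*hel2*∆ by fitted value, with adjusted p of 0.224 and 0.258. The median was 0.00, beside 0.03 for all genes.

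Against wild type, *ncs2*∆*elp6*∆*hel2*∆ had 0 of 21 members called, 0 at an unadjusted p under 0.05 and 0 by DESeq2, where 11.1% of all genes passed (374 genes, but 145 without *ncs2*∆*elp6*∆*hel2*∆ replicate 2, 222 without wild type replicate 2 and 191 without wild type replicate 3). The log2 fold changes of the members called in *ncs2*∆*elp6*∆ were −0.59 ± 0.43 for *COX7*, −0.83 ± 0.49 for *COX19*, −0.71 ± 0.39 for *SDH1*, 0.66 ± 0.55 for *ATP17* and 0.78 ± 0.38 for *QCR7*, with adjusted p from 0.195 to 0.499. The interaction between the *HEL2* deletion and the loss of modifications asks another question. It sets the change of *ncs2*∆*elp6*∆*hel2*∆ against *hel2*∆ beside that of *ncs2*∆*elp6*∆ against wild type. It passed for 0 of 21 members (0 at an unadjusted p under 0.05, 0 by DESeq2) and for 0.0296% of all genes (1 gene, but 92 without *ncs2*∆*elp6*∆*hel2*∆ replicate 2). Its estimates were 0.97 (interval −0.37 to 2.30) for *COX7*, 1.48 (−0.10 to 3.07) for *COX19*, 0.54 (−0.61 to 1.70) for *SDH1*, −1.18 (−2.75 to 0.39) for *ATP17* and −0.44 (−1.56 to 0.67) for *QCR7*. A difference between the responses with and without *HEL2* was therefore not detectable for any member at this depth.

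The study lists RQC targets, which it defined from disome and monosome footprints of strains with these genotypes, and 6 members are among them: *COR1*, *RIP1*, *ATP3*, *ATP4*, *ATP16* and *ATP20*. None of them passed in a comparison, and only *COR1* and *ATP3* could be tested. *COR1* was at 70.6, 80.8 and 75.2 CPM in *ncs2*∆*elp6*∆*hel2*∆ and 95.6, 72.2 and 68.4 CPM in *ncs2*∆*elp6*∆ (log2 fold change −0.02, interval −0.62 to 0.57), and it was at 71.0, 90.9 and 78.1 CPM in *hel2*∆ and 45.4, 82.1 and 72.8 CPM in wild type. *ATP3* was at 30.3, 72.0 and 48.7 CPM in *ncs2*∆*elp6*∆*hel2*∆ and 79.6, 90.3 and 56.4 CPM in *ncs2*∆*elp6*∆ (−0.41, interval −1.11 to 0.29), and at 65.5, 56.8 and 36.4 CPM in *hel2*∆ and 68.1, 95.8 and 43.7 CPM in wild type. *ATP4*, subunit b of the stator, had 1, 16 and 3 reads in *ncs2*∆*elp6*∆*hel2*∆, 7, 15 and 7 in *ncs2*∆*elp6*∆, 1, 4 and 3 in *hel2*∆ and 4, 2 and 2 in wild type. *ATP16*, the delta subunit of F1, had 1, 9 and 2, then 3, 5 and 1, then 2, 0 and 1 reads in those strains and 0, 0 and 1 in wild type. *RIP1*, the Rieske iron-sulfur protein, had 0, 6 and 2, then 1, 2 and 5, then 0, 1 and 0 reads in those strains and 1, 3 and 3 in wild type. *ATP20*, subunit g, had 3 reads in all, 1 each in *ncs2*∆*elp6*∆*hel2*∆ replicate 2, *ncs2*∆*elp6*∆ replicate 2 and *hel2*∆ replicate 1.

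Other genes that build or control the chain were counted for context. Of 24 further assembly factors 8 were tested, and in *ncs2*∆*elp6*∆ against wild type 1 rose and 2 fell (37.5%, beside 30.1% of all genes). *SHY1*, an assembly factor for Cox1, was at 355 ± 10.1 CPM in *ncs2*∆*elp6*∆ and 111 ± 31.1 CPM in wild type (log2 fold change 1.65 ± 0.29, adjusted p = 9.03e-05), and at 345 ± 146 CPM in *ncs2*∆*elp6*∆*hel2*∆ and 149 ± 41.9 CPM in *hel2*∆ (1.07 ± 0.28, adjusted p = 0.014). It also rose in *ncs2*∆*elp6*∆*hel2*∆ against wild type (1.55 ± 0.29, adjusted p = 0.0013). *CBP4* and *BCS1*, both needed to assemble complex III, fell in *ncs2*∆*elp6*∆ against wild type (−1.88 ± 0.44, adjusted p = 0.00177, and −1.57 ± 0.53, adjusted p = 0.0265). *HAP4*, the regulated subunit of the Hap complex that activates respiratory genes, was at 122 ± 11.9 CPM in *ncs2*∆*elp6*∆ and 112 ± 5.0 CPM in wild type (0.12 ± 0.27, adjusted p = 0.778), and *HAP2* did not pass either. Among 13 genes known to be repressed by glucose 5 were tested. In *ncs2*∆*elp6*∆ against wild type 1 rose and 3 fell (80%, beside 30.1% of all genes). *CAT8* (−2.53 ± 0.31), *MLS1* (−2.14 ± 0.34) and *SUC2* (−1.10 ± 0.37) fell and *ALD4* rose (1.93 ± 0.36). *HXK1* did not pass (−0.43 ± 0.42, adjusted p = 0.48). *CAT8* and *MLS1* rose in *ncs2*∆*elp6*∆*hel2*∆ against *ncs2*∆*elp6*∆ (1.40 ± 0.32, adjusted p = 0.00934, and 1.23 ± 0.33, adjusted p = 0.0299). They were 2 of the 5 tested (40%, beside 5.68% of all genes), and their interaction did not pass (adjusted p = 0.178 and 0.312). In *ncs2*∆*elp6*∆*hel2*∆, *CAT8* was still lower than in wild type (−1.13, adjusted p = 0.0114) and *hel2*∆ (−0.89, 0.0432). *ALD4* was still higher than in both (2.16, 0.000389, and 2.15, 0.00054). These were 2 of the 5 tested in each comparison (40%, beside 11.1% and 14.6% of all genes). Of the 7 mitochondrially encoded genes 5 were tested, and 1 was called in *ncs2*∆*elp6*∆ against wild type (20%, beside 30.1% of all genes). This was *ATP6*, the Fo subunit a, which fell (−0.93 ± 0.32, adjusted p = 0.0282). It averaged 224 ± 71.5 CPM in *ncs2*∆*elp6*∆ and 413 ± 185 CPM in wild type. These values rest on 47, 59 and 76 reads in *ncs2*∆*elp6*∆ and 138, 47 and 40 in wild type, which overlap. Whether the call depends on wild type replicate 1 was not tested. Summed over the 7 mitochondrially encoded genes, levels were 705, 674 and 978 CPM in *ncs2*∆*elp6*∆ and 1710, 691 and 830 CPM in wild type, with wild type replicate 1 apart from the rest. Of 66 genes of mitochondrial ribosomal proteins 27 were tested, and 6 rose and 0 fell in *ncs2*∆*elp6*∆ against wild type (22.2%, beside 30.1% of all genes). Of these 27, 4 rose and 0 fell in *ncs2*∆*elp6*∆*hel2*∆ against *hel2*∆ (14.8%, beside 14.6% of all genes), and 0 rose and 1 fell in *ncs2*∆*elp6*∆*hel2*∆ against *ncs2*∆*elp6*∆ (3.7%, beside 5.68%).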

How the data were processed

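Per the labels and the study's methods, the authors trimmed reads with cutadapt, removed noncoding RNA with STAR 2.5.3a, mapped the rest to open reading frames of sacCer3 in the sense direction with Bowtie 1.2.3, kept unique hits and collapsed PCR duplicates by random barcodes with UMI-tools. They deposited raw counts per gene without normalization, and all 12 columns were used (0 left unused). Coordinates and lengths (which include introns) came from RefSeq's R64 annotation, which matched all 60 members by locus tag.

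In R 4.3.3, edgeR 4.0.16 fitted a quasi-likelihood model with strain as the only factor to all 12 libraries, after TMM scaling and removal of weakly counted genes by filterByExpr (minimum count 10). p-values were adjusted by Benjamini-Hochberg over the 3378 genes tested, with a threshold of 0.05. The SE is the log2 fold change divided by the square root of F, and 95% intervals use the fit's t distribution. DESeq2 1.42.0 was an alternative. The procedure was tested on simulated counts. Library totals had a median of 215412 reads, and 3 reads are 0.00072 to 0.0029% of a library.

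Named with values were up to 5 called members per complex, members on the study's RQC list and the isoform pairs; *NDE2*, *QCR9*, *ATP18* and other uncalled members were chosen after their values were seen. Members and lists were chosen with earlier results of these data known. Alternatives are given in the closing section. Fold changes are of 5PSeq counts and were not divided by mRNA level. Motif and protein features of the members were not analysed here.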

Additional observations from a re-analysis of the deposited data

How the results depend on the processing

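Beside those below, every count of called members and every median over the members kept its value within 1.5 times or within the SD between libraries (0.16) under DESeq2 size factors, upper-quartile scaling, the replicate block and the other alternatives. Of the members called in *ncs2*∆*elp6*∆ against wild type (5), DESeq2 called 2 (*COX7* and *COX19*), beside 762 of 6302 genes. A fit of only the strains compared called 3 of 15 tested members, beside 951 of 3095 genes (*COX7* and *COX19* did not pass its filter). A minimum of 10 counts in all 12 libraries left 2 members and called 0, beside 553 of 1412 genes. Libraries thinned to the smallest total, chosen after the data were examined, called 2 of 12 members, beside 515 of 2443 genes. With a replicate block 5 were called, beside 959 of 3378 genes, and the block changed no member's call. Same-numbered libraries did not all deviate together (correlations −0.22 to 0.0388, and 0.0845 to 0.273 between *ncs2*∆*elp6*∆*hel2*∆ and *ncs2*∆*elp6*∆). With 3 libraries a strain, these correlations cannot settle whether the numbers pair the libraries. Without the filter 7 of 60 members were called in *ncs2*∆*elp6*∆ against wild type, beside 18.8% of 6302 genes. In that fit 1 (*COX7*) was called in *ncs2*∆*elp6*∆*hel2*∆ against *hel2*∆ (−1.10, adjusted p = 0.021), beside 8.82% of all genes. Against *ncs2*∆*elp6*∆ it was also 1 (*COX7*, 1.39, adjusted p = 0.0236), beside 4.93%.

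Medians moved under some alternatives. With that minimum (2 members) they were −0.085 in *ncs2*∆*elp6*∆*hel2*∆ against wild type, −0.55 in *hel2*∆ against wild type and 0.53 for the interaction. With only the strains compared they were 0.23 in *ncs2*∆*elp6*∆*hel2*∆ against *hel2*∆ and −0.41 in *hel2*∆ against wild type. Thinned, the median of *ncs2*∆*elp6*∆*hel2*∆ against wild type was −0.083. Leaving out a library, calls ran from 2 to 5 in *ncs2*∆*elp6*∆ against wild type and from 0 to 1 in *ncs2*∆*elp6*∆*hel2*∆ against *hel2*∆ or *ncs2*∆*elp6*∆, and the interaction median from 0.035 (without wild type replicate 1) to 0.38. Signs turned for *ATP17* in *ncs2*∆*elp6*∆*hel2*∆ against *hel2*∆ (−0.15 without *hel2*∆ replicate 3, up to 0.95 without replicate 1), and for *SDH1* in *ncs2*∆*elp6*∆*hel2*∆ against *ncs2*∆*elp6*∆ (−0.0071 without *ncs2*∆*elp6*∆ replicate 2, up to 1.32 without replicate 1, −0.18 thinned) and in the interaction (−0.29 thinned). Over all genes, calls in *ncs2*∆*elp6*∆ against wild type numbered 1016, against 553 with the stricter minimum and 515 thinned, where 1412 and 2443 genes were tested; for the interaction they numbered 1, against 46 by DESeq2, 26 without a filter, 0 with the stricter minimum and 2 thinned. In *ncs2*∆*elp6*∆*hel2*∆ they numbered 374 against wild type (241 with the stricter minimum, 166 thinned), 492 against *hel2*∆ (308, 184) and 192 against *ncs2*∆*elp6*∆ (311 without a filter, 126 with only the strains compared, 100 thinned), and in *hel2*∆ against wild type 3 (1 thinned). Leaving out a library, these counts over all genes ran from 775 to 994 in *ncs2*∆*elp6*∆ against wild type, in *ncs2*∆*elp6*∆*hel2*∆ from 145 to 501 against wild type, 129 to 650 against *hel2*∆ and 38 to 399 against *ncs2*∆*elp6*∆, from 1 to 2 in *hel2*∆ against wild type, and from 1 to 92 for the interaction. The cause of these moves was not tested. Depth left 39 of 60 members untested.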
